A study of Sus scrofa with 12 samples.

Results

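Kinesins, dyneins, dynactin and tubulins were followed through in vitro maturation of porcine oocytes. Members were chosen by name, with DYNLRB1 left out. Their pig symbol starts with KIF and a digit or C, or with DYNC, DYNL, DCTN, TUBA, TUBB or TUBG. DYNLRB1, a dynein light chain whose name fits, had been set apart among the steepest falls of these data. It is in no member count, sum or ranking below. Without it the rule fitted 83 symbols of the reference gene names, and 78 of them had a row among the 31908 Ensembl gene identifiers of the data. TUBA1A, TUBA8, TUBB2A, TUBG2 and DYNLT2B were not analysed here. An identifier that the study names TUBA8 is PEX26 in the reference gene names, so it was not taken as a member, and its 1.84 to 8.04 FPKM are in no sum below. Of the 78 members, 46 averaged at least 1 FPKM across the 12 libraries and were tested, and the other 32 are described by their levels. FPKM is the number of fragments relative to transcript length and to all fragments of the library.

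The samples were denuded porcine oocytes cultured as cumulus-oocyte complexes for 0h, 22h or 46h, with 4 libraries per stage. The series description assigns 0h to the germinal vesicle stage and 46h to metaphase II. The libraries were grouped by culture time, and not every oocyte of a group need have been at the named stage. The complexes were pooled from ovaries of prepubertal gilts, no group carried a genetic change, and the groups differed by culture time in the same maturation medium with gonadotropins and EGF. Nothing in the labels says that the 4 libraries of a stage came from separate animals or cultures, so p-values measure the spread between these libraries, which may be technical. The study's methods give the same number of oocytes for every sample. FPKM is relative to all fragments of a library, so a change in total RNA per oocyte cannot be seen. For any cumulus cells left on the oocytes, fewer cells and less RNA per cell cannot be told apart.

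Microtubules are hollow polymers of alpha and beta tubulin, and gamma tubulin with its complex starts new ones. Kinesins mostly walk towards the plus end or take microtubule ends apart, whereas cytoplasmic dynein, with dynactin as its partner, walks towards the minus end. In the oocyte these proteins build the meiotic spindle without centrioles and place it under the cortex for the extrusion of the polar bodies. The fully grown oocyte makes hardly any new RNA, so these proteins are produced from stored messages.

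Total FPKM of a library ranged from 697468 to 802184, and how many reads lie behind it is unknown. Between 6939 and 7895 genes reached 1 FPKM in the 0h libraries, between 6682 and 7135 in the 22h libraries and between 5819 and 6076 in the 46h libraries. Protein genes encoded in the mitochondria, 13 in number, made up 1.79% to 3.76% of the total in 0h libraries, 8.06% to 12.02% in 22h libraries and 12.8% to 16.7% in 46h libraries. Replicate 4 of 0h stood furthest from the other libraries of its stage. All 10 oocyte markers found, of 12 listed, had a mean of at least 1 FPKM, and their sum was 26542 to 35405 (0h), 33776 to 39070.5 (22h) and 31027 to 36416 FPKM (46h). At 46h this sum was mostly BTG4, at 28330 FPKM on average beside 15762 FPKM at 0h, and the other 9 had a lower mean at 46h than at 0h, such as ZP3 (95.5 beside 2967 FPKM) and GDF9 (37.8 beside 984 FPKM). Of 20 cumulus and granulosa cell markers 16 were found and 3 reached 1 FPKM (VCAN, FST and STAR). LHCGR and INHA were at 0 in every library, and FSHR, AMH and HAS2 did not exceed 0.17 FPKM. STAR averaged 4.5, 3.5 and 4.6 FPKM at 0h, 22h and 46h, and FST 4.9, 3.7 and 4.4 FPKM. The summed cumulus and granulosa markers took 47.3 to 89.1 (0h), 56.1 to 86.3 (22h) and 118 to 144 FPKM (46h), with VCAN at 58.3, 65.0 and 126 FPKM on average. Their part in the results was not tested.

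The start of the tubulin message is shown here because cells control tubulin message stability through it. When free tubulin is plentiful, the factor TTC5 recognises the first residues of a nascent alpha or beta tubulin on the ribosome and triggers decay of that message. The lines below give the first 30 coding bases, spliced across introns and read 5′ to 3′ from RefSeq Sscrofa11.1, for the 7 alpha and beta tubulins that were tested. Capitals mark the first 4 codons.
TUBA1B: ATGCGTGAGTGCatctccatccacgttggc
TUBA4A: ATGCGTGAATGCatctcagtccatgttggg
TUBAL3: ATGAGGGAGTGCctttctgtccacattggc
TUBB: ATGAGGGAAATCgtgcatatccaggccggt
TUBB2B: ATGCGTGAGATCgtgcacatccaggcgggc
TUBB4B: ATGAGGGAGATCgtgcacctgcaggccggc
TUBB4A: ATGCGAGAGATCgtgcacctgcaagccggc

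The fourth codon was TGC in the alpha tubulins and ATC in the beta tubulins of this set. The coding regions lie at chr5:15150410-15153518 for TUBA1B, chr15:121290222-121293915 for TUBA4A and chr10:65476262-65485413 for TUBAL3. Those of TUBB, TUBB2B and TUBB4A lie at chr7:23248027-23251289, chr7:1952944-1955669 and chr2:72599874-72604814, and TUBB4B is on an unplaced scaffold. TUBA1B, TUBA4A, TUBB2B and TUBB4B are on the minus strand, and the other 3 are on the plus strand. TUBA1A, which was not analysed here, starts with the same 30 bases as TUBA1B, and 98.6% of the 1356 coding bases are identical between them. Fragments could therefore have been split between these copies when the authors quantified the genes, and the level of TUBA1B is uncertain to that degree. TUBB2B and TUBB4B shared 93.35% of their coding bases, and TUBB and TUBB4A shared 84.9%.

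A gene was called when the adjusted p was under 0.05 and the fold change over 1.5, in limma on log2(FPKM + 1) fitted over all 7013 genes that average 1 FPKM or more. At 22h against 0h, 11 of the 46 tested members were called (23.9%), 3 of them higher and 8 lower, against 26.7% of all tested genes (7.84% higher, 18.9% lower). At 46h against 22h, 17 were called (37%), 4 higher and 13 lower, against 42.4% of all tested genes (9.87% higher, 32.6% lower). At 46h against 0h, 24 were called (52.2%), 9 higher and 15 lower, against 55.9% of all tested genes (16.8% higher, 39.1% lower). The members' shares were thus near the background in each comparison. Altogether 27 members were called in at least 1 comparison, 4 in all 3 (TUBB4B, DCTN3, DYNLL1 and DYNLL2) and 19 in none (58.7%, 8.7% and 41.3% of the 46, beside 63.7%, 13.5% and 36.3% of all tested genes). These comparisons share libraries and are not independent of each other.

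**Figure D1:**
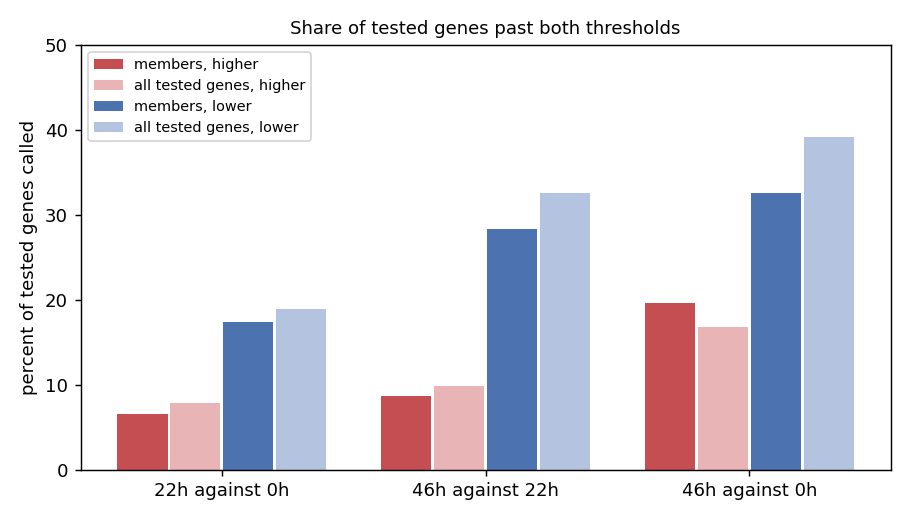
Bars give the percent of tested genes past both thresholds in each comparison, for the 46 tested members (dark) and all 7013 tested genes (light), split into higher (red) and lower (blue). At 46h against 0h, 19.6% of the members were higher and 32.6% lower as deposited, beside 16.8% and 39.1% of all genes; with quantile normalization 22 members were higher and 9 lower.

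How the libraries are scaled moved this split. The median log2 fold change of all tested genes at 46h against 0h stood at -0.25 for values as deposited, at -0.34 with every library brought to the same total (TPM), at 0.0029 after median-of-ratios scaling and at 0.37 after quantile normalization. Between 0h and 46h the members called higher and lower were 9 and 15 as deposited, 5 and 17 with TPM, 15 and 14 with median-of-ratios scaling and 22 and 9 with quantile normalization. Among all genes called in that comparison the higher made up, under these same 4 scalings in turn, 30.1%, 25.6%, 44.1% and 61.7%, beside 37.5%, 22.7%, 51.7% and 71% among the members. For 46h against 22h they numbered 4 and 13 as deposited, 4 and 15 with TPM, 8 and 10 with median-of-ratios scaling and 14 and 8 with quantile normalization, and among all called genes 23.3%, 17.2%, 42.2% and 59.5% were higher. For 22h against 0h they numbered 3 and 8 as deposited, and 8 and 6 both after quantile normalization and with TPM without mitochondrial genes, where 29.4%, 48.2% and 39.8% of all called genes were higher. Some single calls ended with the setting. With TPM this held for KIF15, KIF3A, KIF5B and DCTN5 at 46h against 0h, and after median-of-ratios scaling for TUBGCP5 in both comparisons with 46h and for KIF2C and KIF11 at 46h against 22h. Quantile normalization ended the calls of TUBB, DYNC1LI1, KIF11, TUBGCP3, TUBGCP4 and TUBGCP5 at 46h against 0h, of TUBB4B, DYNC1LI1, KIF2C, KIF11 and TUBGCP5 at 46h against 22h, and of TUBB and KIF16B at 22h against 0h. With TPM without mitochondrial genes TUBB and KIF16B at 22h against 0h and TUBGCP5 at 46h against 0h were lost. Without a filter on low values, where p-values are adjusted over more genes, TUBB, DCTN3, DYNLT1 and TUBG1 at 22h against 0h and KIF2C and KIF13B at 46h against 22h were not called. TUBB and TUBG1 at 22h against 0h were also lost in a fit of the compared groups alone. Changes given below are from values as deposited, and for those the median of all genes was -0.0012 at 22h against 0h and -0.26 at 46h against 22h.

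**Figure D2:**
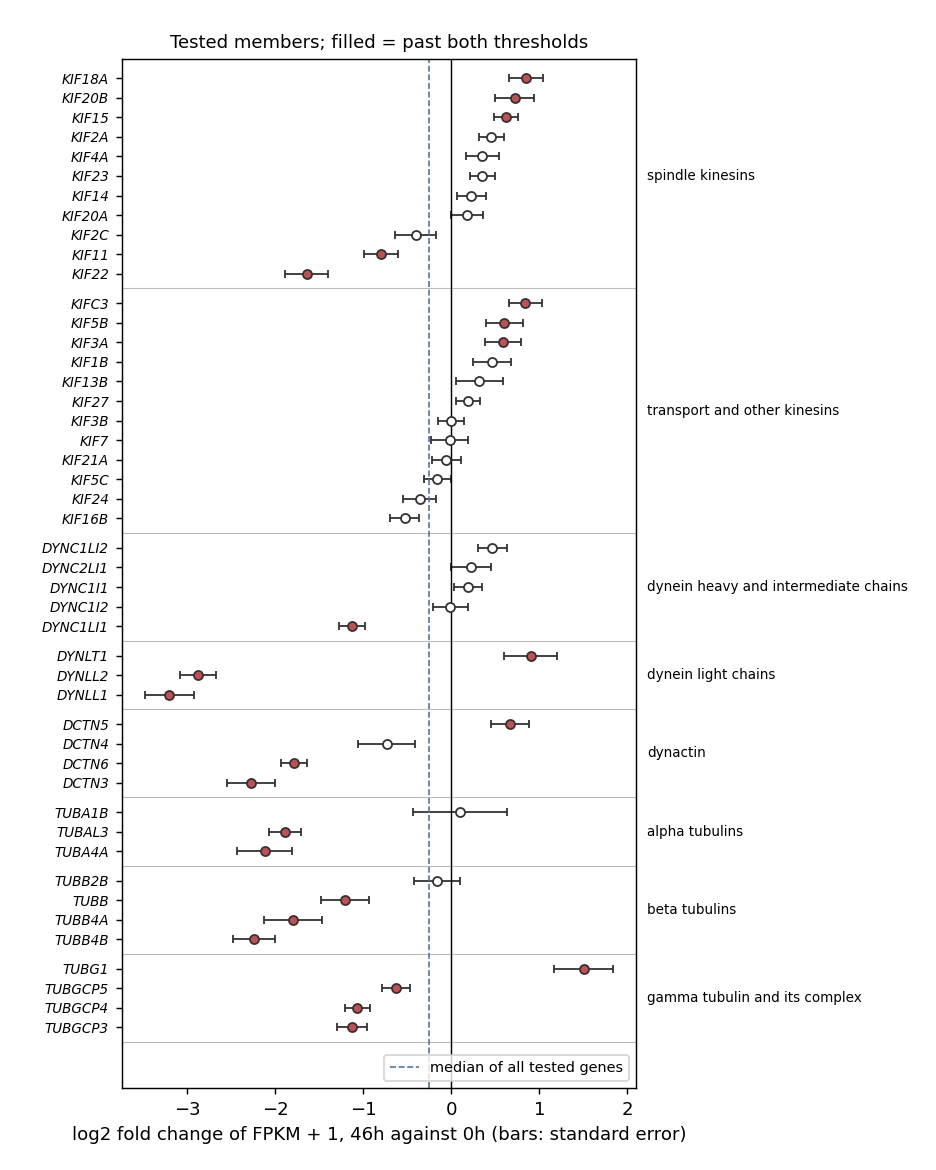
Points give the log2 fold change of FPKM + 1 at 46h against 0h for each of the 46 tested members, grouped by role, with the standard error as bars; filled points passed both thresholds, and the dashed line is the median of all tested genes (-0.25). As deposited and on this scale, DYNLL1 (-3.20) and DYNLL2 (-2.87) have the largest falls of these members and TUBG1 (1.51) the largest rise. DYNLRB1 is not among them.

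Of 14 spindle kinesins 11 were tested. In limma 0 were called at 22h against 0h (2 had an unadjusted p under 0.05, both higher, and 26.7% of all tested genes were called), 2 were higher and 3 lower at 46h against 22h (45.5%, beside 42.4% of all tested genes), and 3 were higher and 2 lower at 46h against 0h (45.5%, beside 55.9%), the latter becoming 6 and 2 with median-of-ratios scaling and 8 and 1 with quantile normalization. From 22h to 46h the balance turned, to 4 higher and 1 lower once scaled by median of ratios and to 5 and 1 after quantile normalization. Their summed level was 475 ± 49.7 at 0h, 504 ± 25.8 at 22h and 640 ± 68.6 FPKM at 46h (SD, n = 4). The count of 0 at 22h became 1, KIF2A, with a pseudocount of 0.1, with TPM without mitochondrial genes, with quantile normalization and without any 1 of 5 libraries (replicates 1, 3 and 4 of 0h, replicates 1 and 3 of 22h).

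KIF20B, a kinesin of the late stages of cell division at chr14:101512685-101594703, was the most abundant kinesin. Its 4 libraries stood at 176.0, 213.61, 152.2 and 111.59 FPKM at 0h, at 146.34, 173.02, 137.78 and 126.38 FPKM at 22h, and at 274.24, 350.78, 187.69 and 263.76 FPKM at 46h. All 46h libraries were above all 22h libraries, while replicate 3 of 46h lay within the 0h range. KIF20B rose from 22h to 46h by 0.85 on the log2 scale (SE 0.22, adjusted p = 0.00591), and from 0h to 46h by 0.72 (SE 0.22, adjusted p = 0.0115). The latter call was lost without replicate 4 of 0h (0.55) and without replicate 2 of 46h (0.58), which both fell under the fold threshold.

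KIF18A, which dampens chromosome movement and shortens plus ends at the kinetochore, lies at chr2:32244073-32331392. Levels were 41.07, 51.41, 33.43 and 28.36 at 0h, 29.94, 43.54, 31.58 and 33.28 at 22h and 69.59, 67.26, 60.63 and 78.59 FPKM at 46h. Every 46h library was above every earlier library. The rise was 0.99 at 46h against 22h (SE 0.19, adjusted p = 0.000759) and 0.85 at 46h against 0h (SE 0.19, adjusted p = 0.00145), or 1.10 relative to the median change of all genes. METTL15 overlaps KIF18A on the other strand and was at 2.72 to 6 FPKM. KIF15, which bundles and crosslinks spindle microtubules, was also higher in every 46h library, with 17.3 to 19.91 (0h), 18.3 to 21.47 (22h) and 25.26 to 33.38 FPKM (46h). Its change at 46h against 0h was 0.62 (SE 0.14, adjusted p = 0.0014), and without replicate 2 of 46h it was 0.56 and under the fold threshold.

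KIF22, a chromokinesin that pushes chromosome arms outward, moved the other way. It was at 23.26, 19.56, 19.1 and 26.66 FPKM at 0h, at 23.51, 16.2, 34.86 and 24.55 FPKM at 22h and at 4.2, 6.18, 9.58 and 6.36 FPKM at 46h. All 46h libraries lay under all earlier ones. The change was -1.76 at 46h against 22h (SE 0.24, adjusted p = 3.61e-05) and -1.64 at 46h against 0h (SE 0.24, adjusted p = 3.73e-05). KIF11, the kinesin that slides antiparallel microtubules apart to make a spindle bipolar, was low throughout, with 1.7 to 4.1 (0h), 2.01 to 3.21 (22h) and 1.14 to 1.44 FPKM (46h). It fell by 0.80 at 46h against 0h (SE 0.20, adjusted p = 0.00256), a call that was lost with quantile normalization (-0.13). KIF2C, a microtubule depolymerase at centromeres, was at 28.48 to 63.2 (0h), 39.67 to 53.95 (22h) and 23.93 to 35.5 FPKM (46h). Its fall of 0.65 at 46h against 22h (SE 0.23, adjusted p = 0.0296) was lost without replicate 1 or 3 of 22h and without replicate 3 or 4 of 46h, with adjusted p from 0.0519 to 0.0879.

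**Figure D3:**
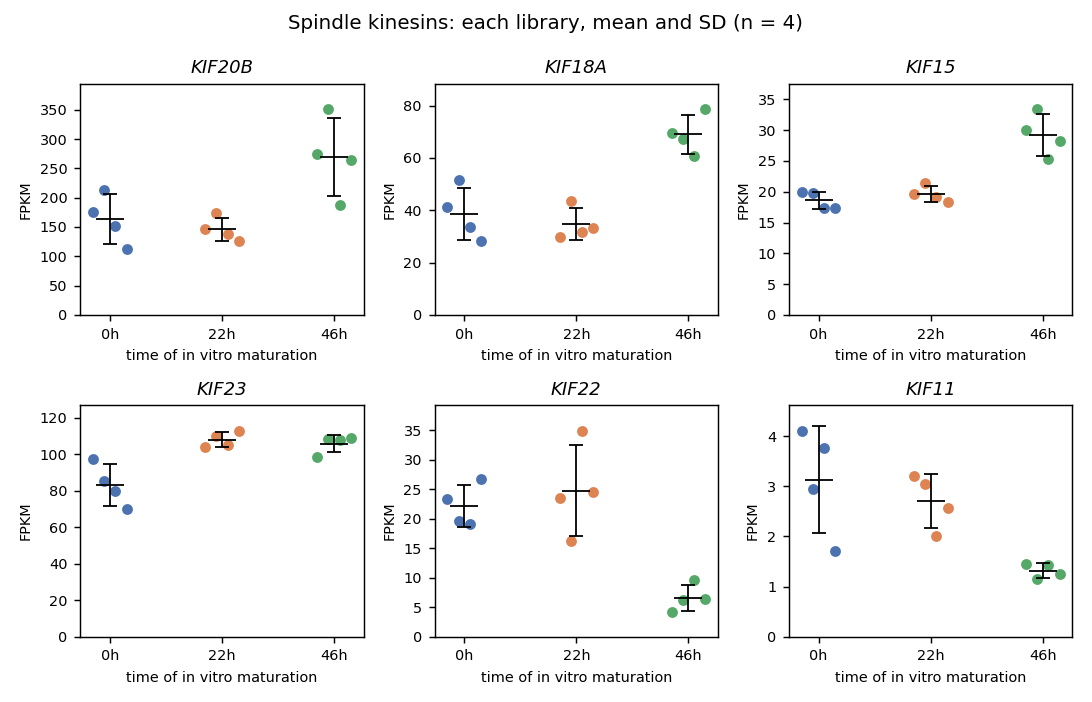
Each panel gives the FPKM of 1 spindle kinesin in every library (points) at 0h, 22h and 46h, with the mean and SD of 4 libraries (black). KIF18A and KIF15 are higher in all 46h libraries than in all earlier ones, KIF22 and KIF11 are lower in all 46h libraries, and KIF23 is within 98.6 to 112.68 FPKM in all 22h and 46h libraries; with quantile normalization the fall of KIF11 was not called.

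KIF23 and KIF20A, both motors of the central spindle and of cytokinesis, passed no call as deposited. At 46h against 0h KIF23 was called higher after median-of-ratios scaling (adjusted p = 0.00378) and quantile normalization (adjusted p = 0.000249), and KIF20A after the latter (adjusted p = 0.00299). KIF23 was at 97.49, 85.27, 79.7 and 69.87 FPKM at 0h, at 104.0, 110.04, 105.23 and 112.68 FPKM at 22h and at 98.6, 108.11, 107.62 and 108.69 FPKM at 46h. The highest 0h library lay under the lowest 46h library by a small margin, and the adjusted p was 0.0407 at 46h against 0h with an interval of the log2 difference from 0.05 to 0.66 (95%), under the fold threshold. KIF20A was at 59.82, 41.14, 56.8 and 53.88 FPKM at 0h, at 66.33, 66.36, 67.14 and 67.42 FPKM at 22h and at 62.0, 46.19, 80.48 and 54.23 FPKM at 46h, with an adjusted p of 0.161, 0.474 and 0.405 at 22h against 0h, 46h against 22h and 46h against 0h. Its libraries at 22h were the closest together, with an SD of 0.552 FPKM. KIF2A, a depolymerase of spindle poles, was at 6.1 to 7.39 (0h), 10.18 to 11.7 (22h) and 8.45 to 11.5 FPKM (46h), with every 22h library above every 0h library. Its log2 difference at 22h against 0h was just under the fold threshold (adjusted p = 0.00709, 95% interval 0.28 to 0.89). Without each of the 5 libraries named above in turn it was called higher, with adjusted p from 0.0093 to 0.0167. Every 46h library was above every 0h library too (adjusted p = 0.0121, under the fold threshold), and that difference was called after median-of-ratios scaling (adjusted p = 0.000312) and quantile normalization (adjusted p = 1.29e-05). KIF4A, a chromokinesin of the midzone, averaged 44.5, 43.4 and 56.8 FPKM at the 3 stages, and KIF14, of the midbody, 1.56, 1.48 and 2.01 FPKM, without a call as deposited. Both were called higher at 46h against each earlier stage with quantile normalization (adjusted p from 0.000165 to 0.00464), and KIF4A also after median-of-ratios scaling (adjusted p = 0.0156 against 0h and 0.018 against 22h). KIFC1, a minus-end motor that gathers spindle poles, was at 0.10 FPKM on average and did not exceed 0.40 FPKM.

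The transport and other kinesins were mostly rare messages. Of 25 members 12 were tested, with 1 higher and 1 lower at 22h against 0h, 1 higher at 46h against 22h, and 3 higher and 0 lower at 46h against 0h. Of all tested genes 26.7%, 42.4% and 55.9% were called in these comparisons, and 16.8% were higher in the last. The count at 46h against 22h became 5 and 0 with quantile normalization. The count from 0h to 46h became 1 and 1 with TPM and 9 and 0 with quantile normalization, and at an unadjusted p under 0.05 it was 4 and 1. The summed level was 120 ± 3.96, 130 ± 17.2 and 161 ± 24.2 FPKM at 0h, 22h and 46h (SD, n = 4).

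KIF3A, a motor subunit of heterotrimeric kinesin-2 that serves cilia and vesicle transport, was the most abundant of the class. It stood at 64.47, 68.51, 52.69 and 44.24 at 0h, 66.19, 70.41, 88.87 and 62.24 at 22h and 87.45, 118.82, 66.74 and 77.91 FPKM at 46h. Replicate 3 of 46h overlapped the 0h libraries. The rise at 46h against 0h was 0.59 (SE 0.20, adjusted p = 0.021) and just over the fold threshold, and it was lost without replicate 3 or 4 of 0h and without replicate 1 or 2 of 46h, with changes from 0.43 to 0.58. KIF3A overlaps RAD50 on the other strand, which was at 16.08 to 39.02 FPKM, and fragments of the 2 genes can be told apart only where strand or unshared exons allow. Its partner motor KIF3B averaged 1.51, 1.99 and 1.5 FPKM.

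KIF13B, which moves signalling cargo along microtubules, was at 27.72, 28.3, 31.75 and 34.32 FPKM at 0h, at 41.3, 24.09, 15.96 and 14.79 FPKM at 22h and at 50.09, 32.99, 31.71 and 40.57 FPKM at 46h. Replicate 1 of 22h was higher than all 0h libraries, and without it KIF13B was called lower at 22h against 0h (adjusted p = 0.0168). The rise of 0.76 at 46h against 22h (SE 0.27, adjusted p = 0.0294) was lost without replicate 3 or 4 of 22h or replicate 1 or 4 of 46h, with adjusted p from 0.0669 to 0.0985. KIF5B, the conventional kinesin heavy chain, was at 4.28, 2.71, 4.64 and 6.35 FPKM at 0h, at 7.22, 6.64, 7.85 and 5.3 FPKM at 22h and at 9.17, 7.1, 5.74 and 6.76 FPKM at 46h, with an adjusted p of 0.0683 between 0h and 22h and of 0.788 between 22h and 46h. At 22h against 0h it was called higher without replicate 4 of 0h (adjusted p = 0.0159). The same held with TPM without mitochondrial genes (adjusted p = 0.0352) and after quantile normalization (adjusted p = 0.00573). Its rise at 46h against 0h was 0.60 (SE 0.21, adjusted p = 0.021), and it fell short of the thresholds without replicate 2 of 0h (0.43) and without replicate 1 of 46h (0.49).

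KIFC3, a minus-end kinesin linked to junctions and to the Golgi, was low and rose early. Its libraries were at 0.74, 0.62, 0.73 and 1.21 FPKM at 0h, at 1.22, 2.28, 2.84 and 1.88 FPKM at 22h and at 1.65, 2.57, 2.64 and 2.22 FPKM at 46h. No 0h library reached a later one. The change was 0.73 at 22h against 0h (SE 0.19, adjusted p = 0.00917) and 0.84 at 46h against 0h (SE 0.19, adjusted p = 0.00123). KIF16B, an early endosome motor, was at 4.63 to 6.3 (0h), 2.53 to 4.04 (22h) and 2.93 to 3.8 FPKM (46h). Its fall of 0.60 at 22h against 0h (SE 0.16, adjusted p = 0.0132) was lost without replicate 2 of 0h and without replicate 1 or 2 of 22h, with changes from -0.54 to -0.51. KIF27, a relative of the Hedgehog pathway kinesin KIF7, passed no call as deposited and was at 6.27, 6.17, 6.13 and 5.75 FPKM at 0h, at 6.07, 6.61, 5.87 and 4.94 FPKM at 22h and at 7.16, 7.87, 6.68 and 6.6 FPKM at 46h. Its adjusted p was 0.809 at 22h against 0h, 0.166 at 46h against 22h and 0.241 at 46h against 0h (95% interval of the log2 difference -0.10 to 0.48). Every 46h library was above every 0h library, and with quantile normalization KIF27 was called higher at 46h against 0h (adjusted p = 0.00024) and against 22h (adjusted p = 0.00151).

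Among dynein heavy, intermediate and light intermediate chains, DYNC2LI1 had the highest listed FPKM. Of 9 members 5 were tested, and as deposited DYNC1LI1 was the single member called, lower at 46h against both earlier stages (20%, beside 42.4% of all tested genes called against 22h and 55.9% against 0h). After quantile normalization that call was lost and 2 members were higher at 46h against 0h. DYNC2LI1 is the light intermediate chain of dynein 2, the motor of retrograde transport in cilia, and lies at chr3:96656099-96703282. It was at 4999.14, 6818.81, 4896.4 and 2975.05 FPKM at 0h, at 4975.23, 6415.0, 5426.7 and 6380.0 FPKM at 22h and at 5673.18, 4414.95, 5478.53 and 6675.04 FPKM at 46h. With a mean of 5427 FPKM it ranked 24 among all 31908 identifiers and took 0.380% to 0.943% of the total FPKM of a library. The stages overlapped, and the adjusted p was 0.352 at 22h against 0h, 0.823 at 46h against 22h and 0.412 at 46h against 0h (95% interval of the last log2 difference -0.26 to 0.70). ABCG5 overlaps it on the other strand and was at 0.59 to 2.99 FPKM. Whether the fragments counted here all come from the DYNC2LI1 message was not tested, so the level is that of the locus as listed. The other dynein 2 members DYNC2H1, DYNC2I1 and DYNC2I2, which are its heavy and intermediate chains, averaged 0.656, 0.161 and 0.0325 FPKM.

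For dynein 1, the motor of the spindle and of most minus-end transport, the intermediate chain DYNC1I2 was the most abundant of the heavy, intermediate and light intermediate chains. It stood at 191.42, 129.38, 134.39 and 95.91 FPKM at 0h, at 196.17, 192.33, 191.5 and 215.68 FPKM at 22h and at 131.32, 108.06, 160.37 and 136.64 FPKM at 46h. Every 22h library was above every other library. The log2 difference had an adjusted p of 0.041 at 22h against 0h and 0.0258 at 46h against 22h, both under the fold threshold, and 0.97 at 46h against 0h. DYNC1I2 was called higher at 22h without replicate 1 of 0h (adjusted p = 0.00998), with TPM without mitochondrial genes (0.0293) and after quantile normalization (0.0133), and called at 46h against 22h with TPM (0.0194), without replicate 2 or 3 of 22h and without replicate 3 or 4 of 46h (adjusted p from 0.0202 to 0.0492).

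The light intermediate chains of dynein 1, which link the motor to its adaptors, took different courses. DYNC1LI1 was at 1.9, 2.08, 1.64 and 1.59 FPKM at 0h, at 1.92, 1.32, 1.45 and 0.96 FPKM at 22h and at 0.35, 0.16, 0.26 and 0.36 FPKM at 46h. It fell by 1.13 at 46h against 0h (SE 0.15, adjusted p = 1.3e-05) and by 0.90 at 46h against 22h (SE 0.15, adjusted p = 0.000193). DYNC1LI2 was at 10.87, 10.19, 10.46 and 12.25 FPKM at 0h, at 12.54, 13.41, 10.98 and 8.68 FPKM at 22h and at 14.6, 18.59, 13.01 and 16.12 FPKM at 46h. Its adjusted p was 0.869 at 22h against 0h, 0.0464 at 46h against 22h and 0.0238 at 46h against 0h, with the last 2 differences under the fold threshold (95% interval of the last 0.11 to 0.82). It was called higher both after median-of-ratios scaling and after quantile normalization. The heavy chain DYNC1H1, the motor subunit itself, was between 0.02 and 0.11 FPKM in every library and was not tested. Its longest RefSeq transcript has 14315 bases, and the gene lies on an unplaced scaffold.

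The dynein light chains held the largest falls of the tested members at 46h against 0h on the log2(FPKM + 1) scale, as deposited. DYNLRB1, the light chain left out of the members, is not part of this ranking. By the ratio of mean FPKM, the rarer messages TUBB4A (0.00323), TUBB4B (0.0519) and TUBA4A (0.0963) lay under DYNLL1 (0.0974) and DYNLL2 (0.132), and TUBB4A is listed at 0 in 2 of the 4 libraries of 46h. DYNLL1 and DYNLL2 are closely related small dimeric proteins that bind dynein and many other partners, and DYNLT1 is a light chain of another family. Of 8 members in the data 3 were tested. Summed over the class without DYNLRB1, the levels were 509 ± 173 at 0h, 215 ± 28.7 at 22h and 60.1 ± 4.03 FPKM at 46h (SD, n = 4).

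DYNLL1, at chr14:40455954-40458352, was at 234.34, 210.49, 470.71 and 577.12 FPKM at 0h, at 163.95, 170.25, 139.26 and 140.72 FPKM at 22h and at 33.8, 36.7, 43.09 and 31.81 FPKM at 46h. The stages did not overlap, and the 0h libraries fell into a lower and a higher pair. The change was -1.15 at 22h against 0h (SE 0.28, adjusted p = 0.00637), -2.05 at 46h against 22h (SE 0.28, adjusted p = 3.05e-05) and -3.20 at 46h against 0h (SE 0.28, adjusted p = 1.73e-07), or -2.95 relative to the median change of all genes. 

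DYNLL2, at chr12:34348336-34356478, followed the same order from a tighter start. It was at 139.37, 138.83, 126.48 and 127.91 FPKM at 0h, at 77.09, 54.4, 45.79 and 40.19 FPKM at 22h and at 20.91, 18.28, 13.06 and 17.77 FPKM at 46h, again without overlap. The change was -1.32 at 22h against 0h (SE 0.20, adjusted p = 0.000287), -1.56 at 46h against 22h (SE 0.20, adjusted p = 1.98e-05) and -2.87 at 46h against 0h (SE 0.20, adjusted p = 1.82e-08). DYNLT1 went up from a low level, with 2.82, 2.7, 3.01 and 1.85 at 0h, 3.31, 8.73, 4.35 and 9.47 at 22h and 10.04, 4.38, 4.26 and 5.29 FPKM at 46h. Its rise was 0.97 at 22h against 0h (SE 0.30, adjusted p = 0.0244) and 0.90 at 46h against 0h (SE 0.30, adjusted p = 0.0168). The first was lost without replicate 2 or 4 of 22h (adjusted p = 0.0813 and 0.0829), and the second without replicate 1 of 46h (adjusted p = 0.063).

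Dynactin, the complex that makes dynein processive and ties it to cargo, was uneven across its subunits. Of its 6 members 4 were tested, and at 46h against 0h 1 was higher and 2 lower (16.8% and 39.1% of all tested genes), which became 0 and 3 with TPM. DCTN6, a small subunit of the pointed end of the dynactin filament at chr15:54876213-54895883, was by far the most abundant. It was at 538.48, 602.53, 537.17 and 530.09 FPKM at 0h, at 666.87, 772.1, 563.27 and 637.9 FPKM at 22h and at 177.43, 137.99, 158.58 and 165.44 FPKM at 46h. All 46h libraries were lower than all earlier ones, and the 22h and 0h libraries overlapped. The change was -2.04 at 46h against 22h (SE 0.15, adjusted p = 6.15e-08) and -1.79 at 46h against 0h (SE 0.15, adjusted p = 1.1e-07), and the adjusted p at 22h against 0h was 0.213.

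DCTN3, a subunit of the dynactin shoulder, was at 7.66, 8.68, 11.27 and 16.76 FPKM at 0h, at 6.89, 3.15, 5.79 and 4.81 FPKM at 22h and at 2.45, 0.59, 1.38 and 1.56 FPKM at 46h. No stage overlapped another. It fell by 0.96 at 22h against 0h (SE 0.28, adjusted p = 0.0175), by 1.32 at 46h against 22h (SE 0.28, adjusted p = 0.00131) and by 2.27 at 46h against 0h (SE 0.28, adjusted p = 5.85e-06). Without replicate 2 of 22h the first of these had an adjusted p of 0.0625. ARID3C, which overlaps DCTN3 on the same strand, was at 0 in every library.

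DCTN5, which sits beside DCTN6 at the pointed end, rose at 46h instead. It was at 9.52, 16.79, 13.36 and 13.98 FPKM at 0h, at 8.69, 13.34, 15.98 and 11.05 FPKM at 22h and at 17.13, 22.43, 27.45 and 19.98 FPKM at 46h. All 46h libraries were above all earlier ones, by 0.79 against 22h (SE 0.22, adjusted p = 0.0077) and by 0.66 against 0h (SE 0.22, adjusted p = 0.0148). The latter was lost without replicate 1 of 0h (0.52) and without replicate 3 of 46h (0.55). DCTN4, another pointed-end subunit, was at 6.54, 3.68, 7.79 and 14.87 FPKM at 0h, at 9.72, 5.83, 7.73 and 6.42 FPKM at 22h and at 5.78, 3.06, 5.47 and 2.6 FPKM at 46h, with an adjusted p of 0.977, 0.0783 and 0.0595 at 22h against 0h, 46h against 22h and 46h against 0h. DCTN4 was called lower at 46h against 22h with TPM (adjusted p = 0.045) and in a fit of the compared groups alone (adjusted p = 0.0235). That call was also made without replicate 2 or 4 of 0h. At 46h against 0h it was called lower with TPM (adjusted p = 0.0324) and without replicate 2 of 0h or replicate 1 of 46h. DCTN1, the large arm that binds microtubules, averaged 0.212 FPKM and DCTN2, which holds the shoulder together, 0.514 FPKM.

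**Figure D4:**
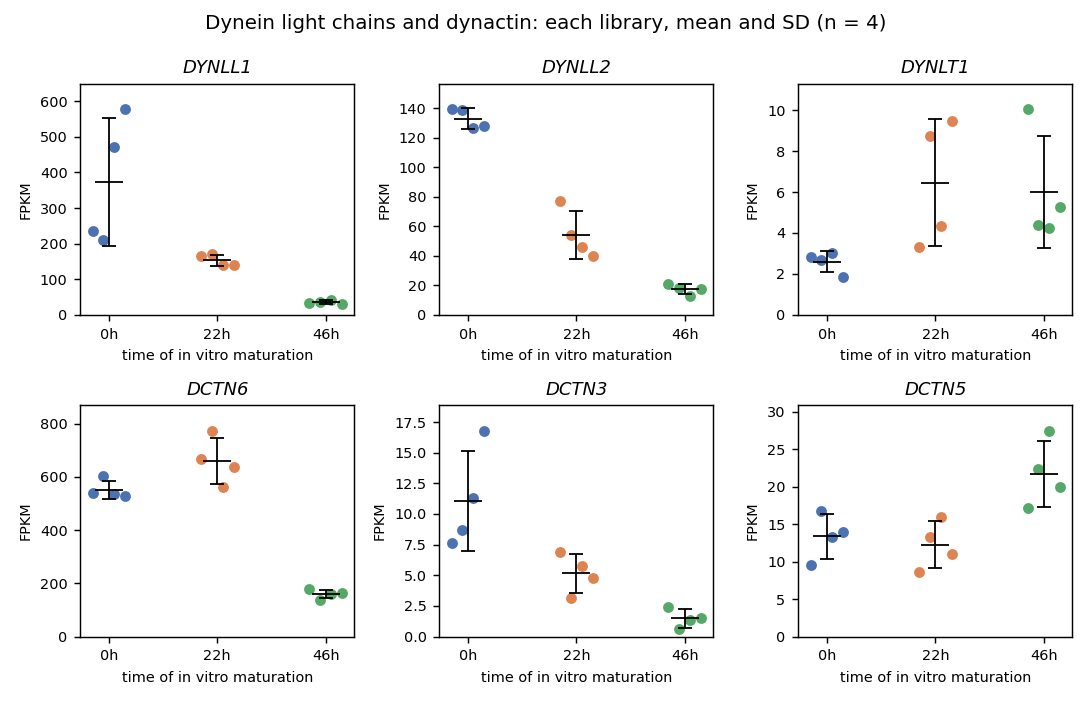
Each panel gives the FPKM of 1 dynein light chain or dynactin subunit in every library (points) at 0h, 22h and 46h, with the mean and SD of 4 libraries (black). The stages do not overlap for DYNLL1, DYNLL2 and DCTN3, DCTN6 is lower in all 46h libraries, and DCTN5 is higher in all 46h libraries; these calls had the same direction under every scaling tried, though DCTN5 at 46h against 0h missed the fold threshold with TPM.

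Alpha tubulin was carried by TUBA1B. Its libraries stood at 656.98, 706.95, 359.09 and 151.52 FPKM at 0h, at 130.17, 401.47, 596.7 and 735.58 FPKM at 22h and at 254.15, 582.8, 468.55 and 479.48 FPKM at 46h. Within 0h the highest library was 707 and the lowest 152 FPKM, and the spread was as wide at 22h. The adjusted p was 0.966 at 22h against 0h, 0.856 at 46h against 22h and 0.884 at 46h against 0h, and the 95% interval of the last log2 difference ran from -1.05 to 1.25.

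The other alpha tubulins fell after 22h. TUBAL3, an alpha tubulin-like protein, was at 13.26, 12.9, 16.43 and 13.66 FPKM at 0h, at 21.34, 28.16, 14.8 and 21.08 FPKM at 22h and at 3.11, 2.98, 2.6 and 3.55 FPKM at 46h. It fell by 2.43 at 46h against 22h (SE 0.18, adjusted p = 8.31e-08) and by 1.89 at 46h against 0h (SE 0.18, adjusted p = 5.18e-07). Between 0h and 22h the adjusted p was 0.0355 with a difference under the fold threshold, and without replicate 3 of 0h or of 22h, with TPM without mitochondrial genes and after quantile normalization it was called higher. TUBA4A was at 5.48, 6.57, 6.24 and 4.76 FPKM at 0h, at 1.44, 1.51, 7.12 and 4.53 FPKM at 22h and at 0.72, 0.48, 0.69 and 0.33 FPKM at 46h. At 22h its libraries fell into a low and a high pair. It fell by 1.40 at 46h against 22h (SE 0.32, adjusted p = 0.0023) and by 2.12 at 46h against 0h (SE 0.32, adjusted p = 4.18e-05). Between 0h and 22h the adjusted p was 0.0964, and 0.00814 without replicate 3 of 22h.

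Beta tubulin messages were scarce by comparison. On the FPKM scale, which is per length, the 7 beta tubulins in the data summed to 17.2 ± 1.72 at 0h, 8.24 ± 3.60 at 22h and 4.89 ± 1.15 at 46h, beside 488 ± 261, 491 ± 263 and 450 ± 138 for the alpha tubulins (SD, n = 4). TUBB2A, and tubulin loci without such a symbol, are not in these sums. Of the 4 tested beta tubulins 3 were lower at 22h against 0h (18.9% of all tested genes were) and 3 at 46h against 0h (39.1% of all), in both cases 2 with quantile normalization.

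TUBB4B fell in all 3 comparisons, with 5.08, 5.21, 4.39 and 4.78 at 0h, 1.35, 0.37, 2.69 and 1.16 at 22h and 0.42, 0.09, 0.08 and 0.42 FPKM at 46h. Every 0h library was above every later one. The change was -1.38 at 22h against 0h (SE 0.24, adjusted p = 0.000713), -0.86 at 46h against 22h (SE 0.24, adjusted p = 0.00855) and -2.24 at 46h against 0h (SE 0.24, adjusted p = 1.46e-06). TUBB, the general beta tubulin of dividing cells, was at 9.52, 6.57, 5.52 and 4.06 FPKM at 0h, at 1.69, 2.01, 4.68 and 4.68 FPKM at 22h and at 1.78, 2.3, 2.64 and 1.79 FPKM at 46h. It fell by 1.20 at 46h against 0h (SE 0.27, adjusted p = 0.00151). Its fall of 0.83 at 22h against 0h (SE 0.27, adjusted p = 0.0323) was lost without replicate 1, 2 or 3 of 0h and without replicate 1 or 2 of 22h (adjusted p from 0.0523 to 0.101).

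TUBB4A, best known from the nervous system, was at 1.68, 0.9, 2.73 and 7.07 FPKM at 0h, at 1.12, 0.4, 0.3 and 0.38 FPKM at 22h and at 0.02, 0.0, 0.02 and 0.0 FPKM at 46h. Replicate 4 of 0h was the highest. It fell by 1.21 at 22h against 0h (SE 0.33, adjusted p = 0.0131) and by 1.80 at 46h against 0h (SE 0.33, adjusted p = 0.000272), and the adjusted p at 46h against 22h was 0.159 although all 46h libraries were lower. That comparison was called with a pseudocount of 0.1 (adjusted p = 0.00264), in a fit of the compared groups alone (adjusted p = 0.0112) and without replicate 4 of 0h (adjusted p = 0.024). TUBB2B was at 2.26, 4.01, 2.36 and 2.69 FPKM at 0h, at 1.83, 2.07, 5.3 and 2.69 FPKM at 22h and at 1.33, 2.09, 3.42 and 3.07 FPKM at 46h and overlapped between all stages. Its adjusted p was 0.998 at 22h against 0h, 0.645 at 46h against 22h and 0.62 at 46h against 0h (95% interval of the log2 difference -0.73 to 0.41). TTC5, named here for its role and after its values were seen, averaged 43.0 ± 1.49, 58.8 ± 20.2 and 56.5 ± 11.6 FPKM (SD, n = 4), with an adjusted p of 0.161 at 46h against 0h.

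At 46h against 0h, as deposited, gamma tubulin was higher and the 3 tested proteins of its complex were lower. TUBG1, gamma tubulin itself, was at 12.27, 12.87, 7.87 and 6.29 FPKM at 0h, at 10.19, 19.2, 39.36 and 22.84 FPKM at 22h and at 20.7, 34.71, 34.27 and 27.28 FPKM at 46h. All 46h libraries were above all 0h libraries, and the 22h libraries reached from one range into the other. The rise was 1.51 at 46h against 0h (SE 0.33, adjusted p = 0.00124). The rise of 1.05 at 22h against 0h (SE 0.33, adjusted p = 0.0275) was lost without replicate 3 or 4 of 0h and without replicate 2, 3 or 4 of 22h, with adjusted p from 0.0529 to 0.0802.

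The complex proteins that hold gamma tubulin in a ring were lower at 46h against 0h in 3 of 3 tested as deposited, beside 39.1% of all tested genes, and in none with quantile normalization. At 46h against 22h 2 of them were lower as deposited, beside 32.6% of all, and TUBGCP3 still with quantile normalization. TUBGCP3, a core protein, was at 1.69, 0.97, 2.06 and 2.52 FPKM at 0h, at 3.25, 3.33, 2.49 and 2.96 FPKM at 22h and at 0.38, 0.17, 0.25 and 0.24 FPKM at 46h, with all 46h libraries lowest. It fell by 1.67 at 46h against 22h (SE 0.17, adjusted p = 2.52e-06) and by 1.13 at 46h against 0h (SE 0.17, adjusted p = 5.92e-05). Between 0h and 22h the difference was under the fold threshold (adjusted p = 0.03), and it was called higher without replicate 3 or 4 of 0h or replicate 3 of 22h, with TPM without mitochondrial genes (adjusted p = 0.0159) and after quantile normalization (adjusted p = 0.00254). TUBGCP4, a ring-specific protein, fell by 22h and was at 6.17, 5.26, 5.34 and 6.55 FPKM at 0h, at 2.68, 2.09, 3.08 and 2.79 FPKM at 22h and at 2.1, 2.04, 2.52 and 2.37 FPKM at 46h. Its change was -0.90 at 22h against 0h (SE 0.14, adjusted p = 0.000368) and -1.07 at 46h against 0h (SE 0.14, adjusted p = 1.44e-05), with an adjusted p of 0.363 between 22h and 46h, and TP53BP1 on the other strand was at 0.75 to 2.6 FPKM.

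TUBGCP5, also ring-specific, was at 10.19, 9.06, 8.0 and 10.79 FPKM at 0h, at 12.85, 10.66, 10.3 and 9.52 FPKM at 22h and at 4.92, 6.53, 5.38 and 6.37 FPKM at 46h. It fell by 0.80 at 46h against 22h (SE 0.15, adjusted p = 0.000679) and by 0.63 at 46h against 0h (SE 0.15, adjusted p = 0.00261). The latter fell short of the fold threshold without replicate 4 of 0h (-0.57) and without replicate 1 of 46h (-0.56), and it had the opposite sign with quantile normalization (0.0331). TUBGCP2 was at 0.69 to 1.4 (0h), 0.85 to 1.07 (22h) and 0.0 to 0.07 FPKM (46h), and its mean of 0.709 FPKM was under the filter.

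**Figure D5:**
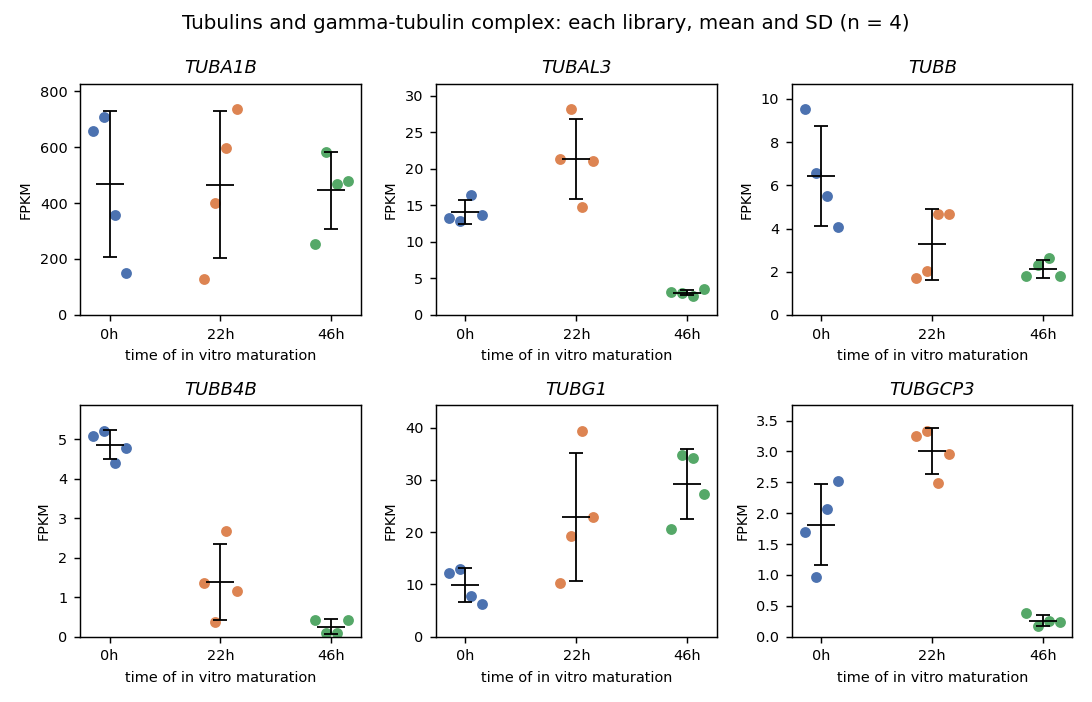
Each panel gives the FPKM of 1 tubulin or complex protein in every library (points) at 0h, 22h and 46h, with the mean and SD of 4 libraries (black). TUBA1B overlaps between all stages, TUBAL3 and TUBGCP3 are lowest in all 46h libraries, TUBB4B is highest in all 0h libraries, and TUBG1 is higher in all 46h libraries than in all 0h libraries; the fall of TUBGCP3 at 46h against 0h missed the fold threshold with quantile normalization.

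Transcript length differed between the members called in each direction. At 46h against 0h, the 8 higher members with a RefSeq length had a median longest transcript of 4263 bases, the 15 lower ones 2495 bases and the 22 not called 4952 bases. Over all tested genes with a length the medians were 3266 for 968 higher, 2796 for 2181 lower and 4228 for 2582 not called. Across 45 members Spearman's rho between length and log2 fold change was 0.395, beside 0.185 across 5731 genes. These are descriptions across genes that share the same libraries.

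Partners of microtubules and motors were taken from a hand-written list of 92 genes, of which 81 were found and 49 tested. At 22h against 0h 3 were higher and 4 lower (14.3% called, beside 26.7% of all tested genes), at 46h against 22h 6 and 19 (51%, beside 42.4%), and at 46h against 0h 13 and 21 (69.4%, beside 55.9%). Of the 11 nucleation partners tested, 3 were higher and 5 lower at 46h against 0h (72.7%), and of the 14 spindle and plus-end proteins 6 were higher and 3 lower (64.3%). HAUS1, a subunit of the augmin complex that branches microtubules, averaged 1019 ± 97.5 at 0h, 230 ± 80.4 at 22h and 16.6 ± 4.12 FPKM at 46h, and changed by -5.88 from 0h to 46h on the log2 scale (SE 0.24, adjusted p = 1.13e-10). HAUS4, of the same complex, went the other way, with 461 ± 185, 953 ± 448 and 1212 ± 262 FPKM and a change of 1.48 (SE 0.40, adjusted p = 0.0047).

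STMN1, which sequesters tubulin dimers, was at 927 ± 49.8 at 0h, 1096 ± 155 at 22h and 82.0 ± 4.59 FPKM at 46h, a change of -3.48 at 46h against 0h (SE 0.14, adjusted p = 1.28e-10). NUSAP1, which bundles microtubules near chromosomes, was at 549 ± 186, 731 ± 181 and 76.4 ± 7.46 FPKM, a change of -2.76 (SE 0.25, adjusted p = 2.88e-07). HMMR, which helps to focus spindle poles, rose from 519.5 ± 140 at 0h to 1035 ± 169 FPKM at 46h, with a change of 1.03 (SE 0.21, adjusted p = 0.000708). TBCC, a chaperone of tubulin folding, fell from 64.9 ± 3.93 to 5.44 ± 0.656 FPKM (-3.36, SE 0.22, adjusted p = 7.71e-09), and TRAK2, an adaptor of mitochondrial transport, from 19.9 ± 5.44 to 1.41 ± 0.514 FPKM (-3.11, SE 0.21, adjusted p = 1.28e-08).

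The 32 members under the filter included 7 at 0 in every library, which were DYNLRB2, DYNLT2, DYNLT4, KIF19, KIF1A, KIF21B and KIF26A. Neuronal or ciliary kinesins made up part of this set, such as KIF1A and KIF21B of axonal transport and KIF19 of cilia. The highest of the 32 was KIF3C, at 0.850 FPKM on average, followed by TUBGCP2 at 0.709 FPKM and DYNC2H1 at 0.656 FPKM. Beta tubulins TUBB1, TUBB3 and TUBB6 were between 0 and 0.17 FPKM in every library. These members had no test in the main comparisons. Without the filter on low values 25 of them could be tested, and TUBGCP2, KIF17 and DCTN2 were called lower at 46h against 0h (adjusted p = 3.03e-05, 0.000518 and 0.0315), TUBGCP2 also at 46h against 22h (adjusted p = 0.000149). The share of all genes called in that fit is not given here, so these calls say nothing about the rare members as a set. TUBGCP2, a core protein of the gamma tubulin complex, was at 0.69 to 1.4 (0h), 0.85 to 1.07 (22h) and 0 to 0.07 FPKM (46h). The reads behind values this low are not known.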

How the data were processed

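RNA of denuded oocytes was amplified by SMART-Seq2 with an oligo-dT primer, so that cDNA began at poly(A) tails. The values are thus of messages captured through their tails. Whether that capture differed between stages was not tested, so rises and falls above need not be changes in message amount. Per the study's methods, the authors trimmed reads with Trim Galore, aligned them to the swine genome with STAR and deposited FPKM values made with RSEM. Counts made with HTSeq were not used here. The FPKM values have 2 decimals, carry no depth and were used as deposited; counting precision is therefore unknown, and the spread over 4 libraries is the error. No strand information was used, and overlapping genes are named beside only some of the members they overlap. Among others, TUBA1B, TUBB4B, KIF23, KIF20A, KIF2A, KIF13B, KIF27 and KIFC3 also have an overlapping gene on the other strand. TUBB2B and KIF2C have one on the same strand. Of these genes only CDC23, which overlaps KIF20A, has its level given here, at 0.04 to 0.56 FPKM.

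Gene symbols came from the reference name table, which named 15029 of 31908 identifiers, and positions and sequences from RefSeq Sscrofa11.1, matched by symbol. That build may differ from the one the authors used. The series description words the middle time point differently from the sample labels, whose 22h is used here.

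The 7013 genes averaging 1 FPKM or more across 12 libraries were modelled as log2(FPKM + 1), a pseudocount of 1, by limma 3.58.1 (R 4.3.3, lmFit and eBayes with trend), stage being the only factor. All tests were two-sided, and p-values were adjusted by Benjamini-Hochberg over these 7013 genes. A fold change on this scale understates the change of low genes. In each role class the 3 most abundant tested members and the 3 called members with the largest change are given in full, and others were added for their role after their values were seen. The partner genes given are the called ones with the highest mean and the largest change at 46h against 0h. Members, classes and lists were chosen with earlier results of these data known. The fit was tested on simulated data, but the outcome is not given here and no result rests on it. The alternatives were a pseudocount of 0.1, no filter, a mean of at least 5 FPKM, TPM with and without mitochondrial genes, median-of-ratios scaling, quantile normalization, only the groups compared, no trend, a replicate block, each library left out, and no threshold on fold change. Python 3.11.15, pandas 2.3.3, numpy 2.4.6 and matplotlib 3.10.9 were used for tables and figures.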

Additional observations from a re-analysis of the deposited data

Results flagged for a closer look

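Among 162 groups of 4 libraries, 5 held a library whose gap to the nearest of the others was large for the range of its group. Chance alone gives such a gap in about 1 in 20 groups. TUBB4A at 22h was at 1.12 FPKM in replicate 1 and at 0.3 to 0.4 FPKM in the other libraries. DCTN6 at 0h was at 602.53 FPKM in replicate 2 and at 530.09 to 538.48 FPKM in the others. DYNC1I1, an intermediate chain of dynein 1, was at 8.61 FPKM in replicate 1 of 46h and at 10.67 to 11.05 FPKM in the others. KIF23 at 46h was at 98.6 FPKM in replicate 1 and at 107.62 to 108.69 FPKM in the others. KIF3B at 46h was at 1.89 FPKM in replicate 3 and at 1.31 to 1.4 FPKM in the others.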

How the results depend on the processing

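Single genes here are the tested members and the partner genes described above, which were picked for being called. Of 67 changes called for them, 44 kept their direction and call in every alternative that tested the gene. No call of these partner genes was lost, so the share kept is lower among the members alone. Of 92 that were not called, 55 stayed so. Of the 67 and the 92, 20 and 31 had no value with a mean of at least 5 FPKM. A single called change reversed: TUBGCP5 at 46h against 0h was 0.0331 with quantile normalization. At 22h against 0h, the 11 members called became 7 with no filter and 5 with a mean of at least 5 FPKM. The 3 higher became 1 with no filter, 8 with TPM without mitochondrial genes, 8 with quantile normalization and 7 with no threshold on fold change, and the 8 lower became 3 with a mean of at least 5 FPKM. Leaving out 1 library gave 6 to 14 called, 1 to 5 higher and 5 to 9 lower, with the fewest called without replicate 2 of 22h. At 46h against 22h, the 4 higher became 8 after median-of-ratios scaling and 14 after quantile normalization, and the 13 lower became 8 both with a mean of at least 5 FPKM and after quantile normalization; leaving out 1 library gave 16 to 19 called, 3 to 5 higher and 12 to 15 lower. At 46h against 0h, the 24 called became 15 with a mean of at least 5 FPKM. The 9 higher became 5 with TPM, 15 after median-of-ratios scaling and 22 after quantile normalization, and the 15 lower became 7 with a mean of at least 5 FPKM and 9 after quantile normalization; leaving out 1 library gave 21 to 24 called, 6 to 9 higher and 15 to 16 lower. The stricter filter tests fewer members. Elsewhere the cause was not tested.

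The deviations of each library from the mean of its stage, over all tested genes, were correlated between libraries of different stages. Of 12 such correlations between same-numbered libraries 3 were over 0.1, and they ranged from -0.47 to 0.38. All 3 lay between 22h and 46h, at 0.38, 0.21 and 0.13 for replicates 1, 3 and 4, with 0.0088 for replicate 2. Between differently numbered libraries the correlations ranged from -0.43 to 0.53. The deviations within a stage cancel out and the libraries are few, so these correlations cannot exclude a pairing. Whether replicate numbers pair the libraries of any stages remains uncertain. With the replicate block, 10 members were called at 22h against 0h (3 higher, 7 lower), 16 at 46h against 22h (4 and 12) and 24 at 46h against 0h (9 and 15). The block ended the calls of TUBB at 22h against 0h (adjusted p = 0.0591) and KIF2C at 46h against 22h (adjusted p = 0.058).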
